A study of Mus musculus with 12 samples.

Results

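Laminins, integrins and the proteins that tie them together build and read the basement membrane, the thin sheet of matrix under epithelia and around vessels, muscle and Schwann cells. A laminin is a trimer of an alpha, a beta and a gamma chain. Nidogens and the proteoglycans perlecan and agrin link laminin to collagen IV, and cells hold the sheet through integrins, each a pair of an alpha and a beta chain, and through dystroglycan. In the cochlea such sheets lie under the organ of Corti and the strial epithelium, around the strial capillaries and around the Schwann cells of the auditory nerve.

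The genes described here were taken by name in the array annotation alone, by a rule set with earlier results of these data known. The names are Lama, Lamb or Lamc with a number from 1 to 5, and Itga with any number. Itgav, Itgb with a number from 1 to 8, Nid1, Nid2, Hspg2, Agrn and Dag1 also belong. These were 35 of 19505 named genes, read by 1031 of 165865 probes. The 12 one-colour exon arrays were 4 each of apical, middle and basal turn of cochleae from male C57BL/6 mice aged 6 weeks, untreated as far as the labels say. Each piece held the organ of Corti, the lateral wall (spiral ligament, spiral prominence and stria vascularis) and, by the methods, spiral ganglion neurons, and 25 ng of total RNA was labelled from each sample. The comparison asks which of these genes differ along the tonotopic axis from apex to base.

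The methods speak of 4 mice, and the labels do not say which arrays of different turns came from the same mouse. Each turn was hybridised on a slide of its own, so slide and turn cannot be told apart. On each array 77.4% to 81.4% of spots were well above background and no spot was saturated. Every one of the 35 genes had at least 1 probe well above background, and 17 had all of theirs. The median SD of the 35 genes over 4 arrays was 0.115, 0.119 and 0.114 (log2) in apex, middle and base, beside 0.106, 0.126 and 0.115 over all genes. Basal replicate 3 stood apart from the other basal arrays in nerve markers, as given below beside the genes it touches.

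Along the axis, the laminin chains Lamb1, Lama4 and Lama1, dystroglycan, perlecan, nidogen Nid1 and the integrin chains Itga4, Itga6, Itgb4 and Itgb6 were higher in apex than in base. The laminin chain Lamb3 and the integrin chains Itga1, Itga8, Itgav and Itgb5 were higher in base. In numbers, 10 of 35 genes were called higher in apex than base, 28.6%, beside 17.6% of all genes, and 6 were called higher in base, 17.1%, beside 21.6% of all genes. A gene was called at an adjusted p under 0.05 in limma's test over all genes. The median log2 difference of apex minus base was 0.0745 over the 35 genes and -0.0361 over all genes. With the arrays scaled to their spike-in probes instead of the 75th percentile the split was 2 higher in apex and 20 higher in base, beside 917 and 13393 of all 19505 genes, and the median of all genes itself moved to -0.45. On that scale the apex minus base values of Dag1, Itga6, Itgb4, Itgb6 and Nid1 took the other sign, from -0.22 to -0.03, each of them still above the median of all genes. Hspg2, Lama1 and Itga4 kept their sign there, at 0.04, 0.30 and 0.25, but lost the call at adjusted p-values of 0.79, 0.11 and 0.19. Scaling to the median signal gave 7 and 8, beside 2267 and 6290 of all genes, and quantile normalization 9 and 9, beside 2911 and 4999. Without basal replicate 3 the counts were 10 and 6.

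**Figure D1:**
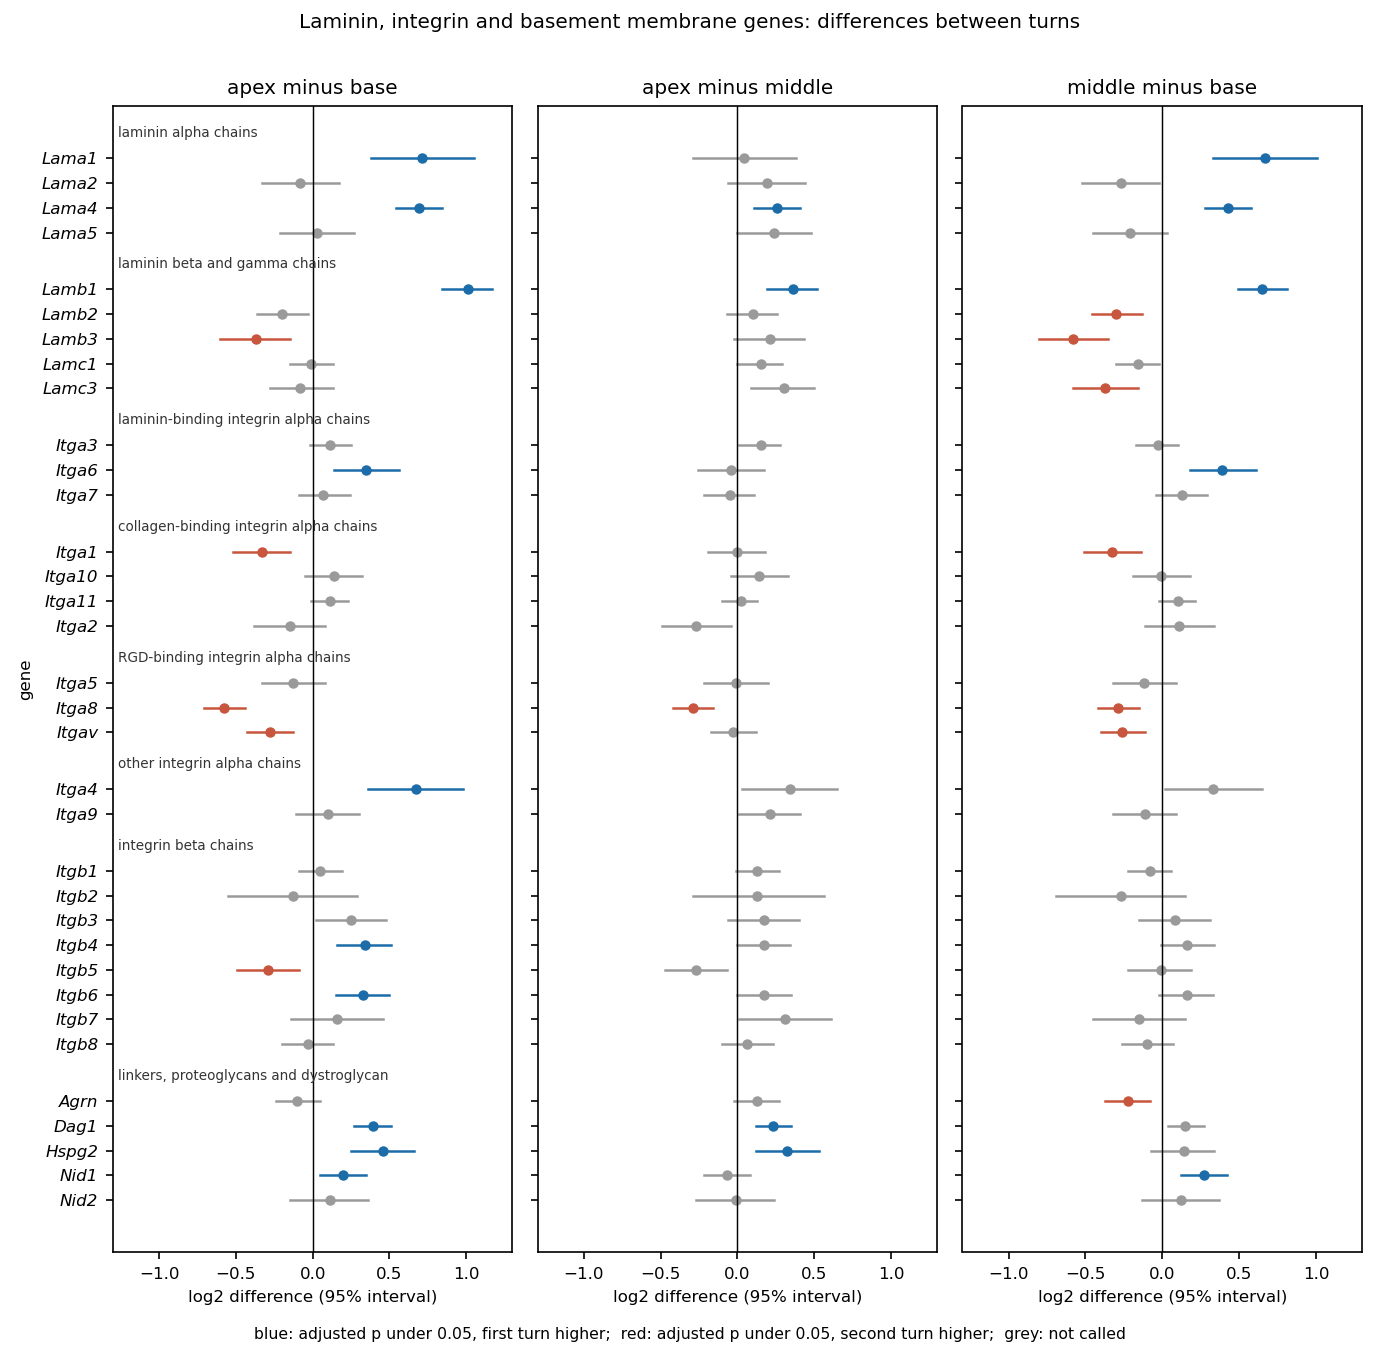
Log2 difference between turns for the genes named in the text, grouped by role, with the 95% interval of the limma fit (dots with bars) in 3 comparisons. Colour marks an adjusted p under 0.05. Lamb1 lies farthest to the right in apex minus base at 1.01, and Dag1, Itga6, Itgb4, Itgb6 and Nid1, right of 0 there, fall left of 0 when arrays are scaled to spike-in probes.

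The 3 comparisons share arrays, so their values are set side by side only. Between apex and middle, 5 genes were higher in apex, 14.3%, beside 4.42% of all genes. Lamb1, Lama4, Dag1 and Hspg2 were among them. Only Itga8 was higher in middle than apex, 2.86% of the 35, beside 7.59% of all genes. The count of 5 fell to 1 without apical replicate 2 or middle replicate 4, to 2 without middle replicate 2 and to 3 without middle replicate 1, and the count of 1 rose to 2 without middle replicate 1. Between middle and base, 5 genes were higher in middle, 14.3%, beside 11.7% of all genes, and were Lama1, Lama4, Lamb1, Itga6 and Nid1. A further 8 were higher in base than middle, 22.9%, beside 9.21% of all genes. Lamb2, Lamb3, Lamc3, Itga1, Itga8, Itgav and Agrn were among them. That count was 4 without middle replicate 1 and 5 without basal replicate 2.

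**Figure D2:**
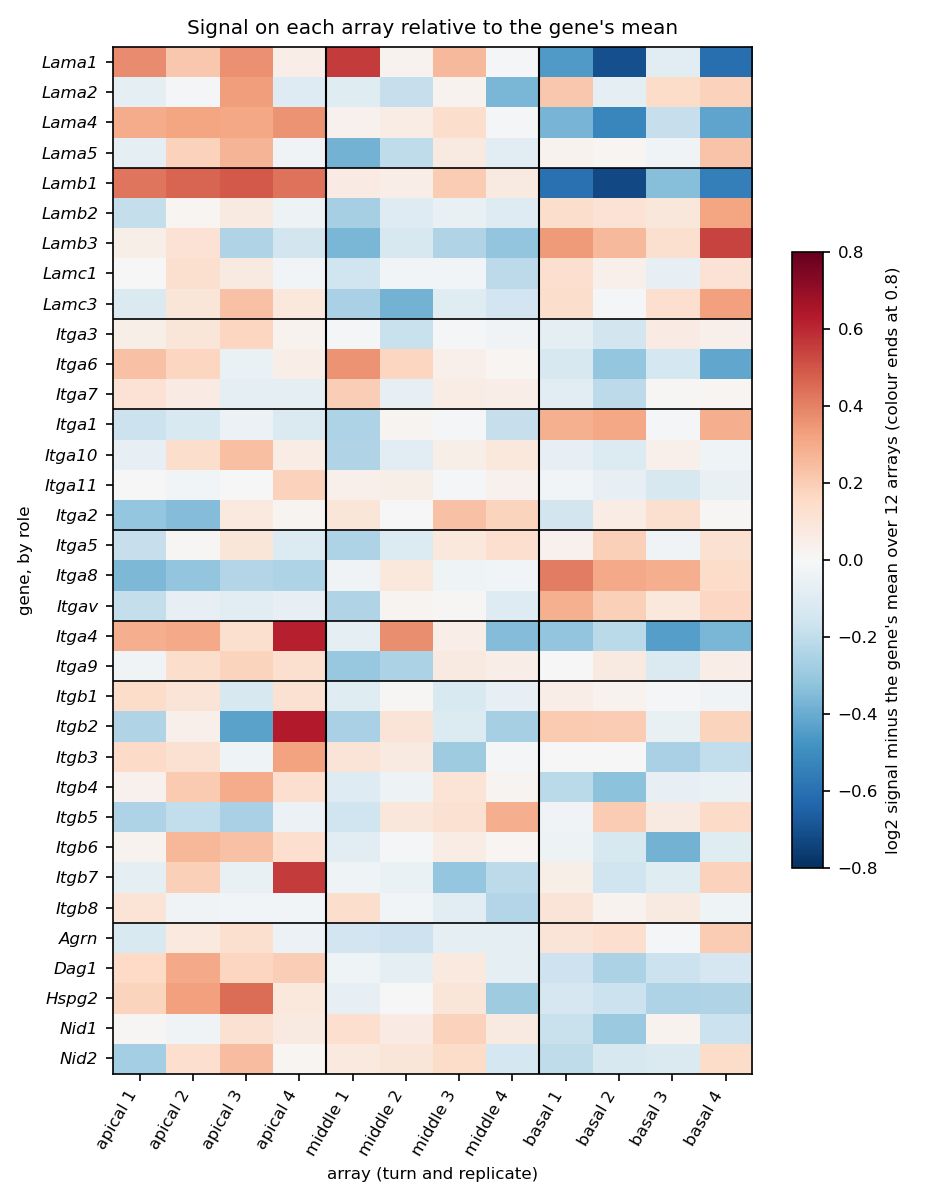
Signal of each gene (rows, by role) on each of the 12 arrays (columns) as log2 minus the gene's mean over all arrays, red above and blue below that mean. Lamb1 and Lama4 are red on every apical and blue on every basal array, with basal replicate 3 the palest of the basal arrays, and Itga4, Itgb2 and Itgb7 are reddest on apical replicate 4.

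Lamb1 and Lama4 had the smallest adjusted p-values of the 35 genes between apex and base. Lamb1 encodes the beta chain found in most laminin trimers. Its scaled signal was 583, 598, 608 and 586 on the apical arrays, 454, 450, 498 and 455 on the middle arrays and 286, 263, 342 and 297 on the basal arrays. The 3 turns did not overlap, and the level stepped down from apex to middle to base. The log2 difference of apex minus base was 1.01 ± 0.073 (SE, n = 4 a turn), a fold of 2.01, with a limma adjusted p of 3.4e-06. Apex minus middle was 0.36, adjusted p 0.013, and middle minus base 0.65, adjusted p 0.00023. Spike-in scaling took the adjusted p of apex minus middle to 0.18. Under every alternative the sign of the 3 Lamb1 differences was kept, with apex minus base between 0.59 (spike-in scaling, where the median gene was at -0.45) and 1.2.

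Lama4 encodes an alpha chain known from vessel walls, nerve and mesenchymal matrix. Signals were 227, 230, 229 and 237 in apex, 189, 193, 204 and 183 in middle and 143, 129, 163 and 138 in base. Here too no array of one turn reached into the range of another. Apex minus base was 0.69 ± 0.069 on the log2 scale, 1.62-fold, adjusted p 2.7e-05, and middle minus base was 0.43, adjusted p 0.002. The step from apex to middle, 0.26 with adjusted p 0.034, kept its call in 16 of 26 alternatives. It lost it without any 1 apical array or without middle replicate 1, 2 or 4, where the adjusted p rose to at most 0.094, and with spike-in scaling, normexp background correction or the median of probes, where it rose to at most 0.49.

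Lama1 encodes an alpha chain best known from embryonic basement membranes. The apical arrays read 52.1, 46.5, 51.5 and 41.5, the middle arrays 58.9, 40.8, 47.9 and 39.7, and the basal arrays 29.2, 24.6, 37.6 and 26.4. Apex and middle overlapped throughout, and all basal arrays lay below both. The log2 difference between apex and base was 0.71 ± 0.15, 1.64-fold, adjusted p 0.0035, and middle minus base 0.67, adjusted p 0.012. Lama1 was dim, with 32 of its 63 probes well above background in some turn and 32 above it on no basal array. With the gene's mean signal on each basal array set no lower than the lowest signal well above background, it was 1.60-fold higher in apex. Single probes were not raised to that level, so this fold is no lower bound. Averaging its probes on the linear scale, which gives dim probes little weight, left differences of 0.15 with adjusted p 0.10 for apex minus base and 0.14 for middle minus base. With only the probes well above background in some turn they were 0.65 and 0.66. Of all its probes, 31 passed on every apical array and 23 on every basal array. Some probes thus entered that filter without passing in base, so the filtered values are no separate support.

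Lamb3 encodes a beta chain of an epithelial laminin that anchors hemidesmosomes. Its signals ran from 86 to 110 in apex, 79.1 to 93.1 in middle and 111 to 148 in base. Every basal array was above every other array, while apex and middle overlapped. Middle minus base was -0.58 on the log2 scale, adjusted p 0.0036, and apex minus base -0.37, adjusted p 0.014, which became 0.13 when the median of probes was taken.

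The order of the turns was read from the genes that passed the F test over the 3 turns. Of the 18 genes that passed that test, 8 fell from apex to base, 4 rose, 4 were lowest and 2 highest in the middle turn, beside 32.5%, 43.9%, 7.26% and 16.3% of the 7538 genes that passed among all genes. The 8 were Lama1, Lama4, Lamb1, Itga4, Itgb4, Itgb6, Dag1 and Hspg2, the 4 that rose were Itga1, Itga8, Itgav and Itgb5, and the 2 highest in middle were Itga6 and Nid1. Lamb2, Lamb3 and Lamc3 were among those lowest in middle.

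The other laminin chains differed little. Lamb2 encodes the beta chain of the synaptic and glomerular sheets, with signals of 859, 990, 1030 and 952 in apex, 815, 913, 939 and 911 in middle and 1080, 1060, 1040 and 1220 in base. Every basal array was above every other array, and middle minus base was -0.30, adjusted p 0.017, which became 0.053 without middle replicate 1. Apex minus base, -0.20, missed the threshold at an adjusted p of 0.057. Lamc1, the gamma chain of most trimers, read 805, 877, 843 and 790 in apex, 720, 791, 792 and 693 in middle and 879, 827, 767 and 870 in base. These groups overlapped, and the 95% interval of apex minus base ran from -0.15 to 0.13.

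Lama2 encodes the alpha chain of muscle and Schwann cell sheets. It read 294, 308, 392 and 289 in apex, 290, 273, 317 and 241 in middle and 361, 294, 343 and 352 in base. The turns overlapped, and apex minus base had a 95% interval from -0.33 to 0.17. Lama5, the alpha chain of most adult epithelia, gave 0.03 (95% interval -0.21 to 0.27), and Lamc3 was called between middle and base alone, at -0.37 and adjusted p 0.017, or 0.092 with the median of probes.

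Within an array the scaling factor cancels. The log2 difference of Lamb1 minus Lamb2 was higher in apex than base by 1.2, with SDs of 0.091 and 0.2 over 4 arrays, and that of Lama4 minus Lama5 by 0.66. These pairs were chosen after their values were seen, and no test was made of them.

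**Figure D3:**
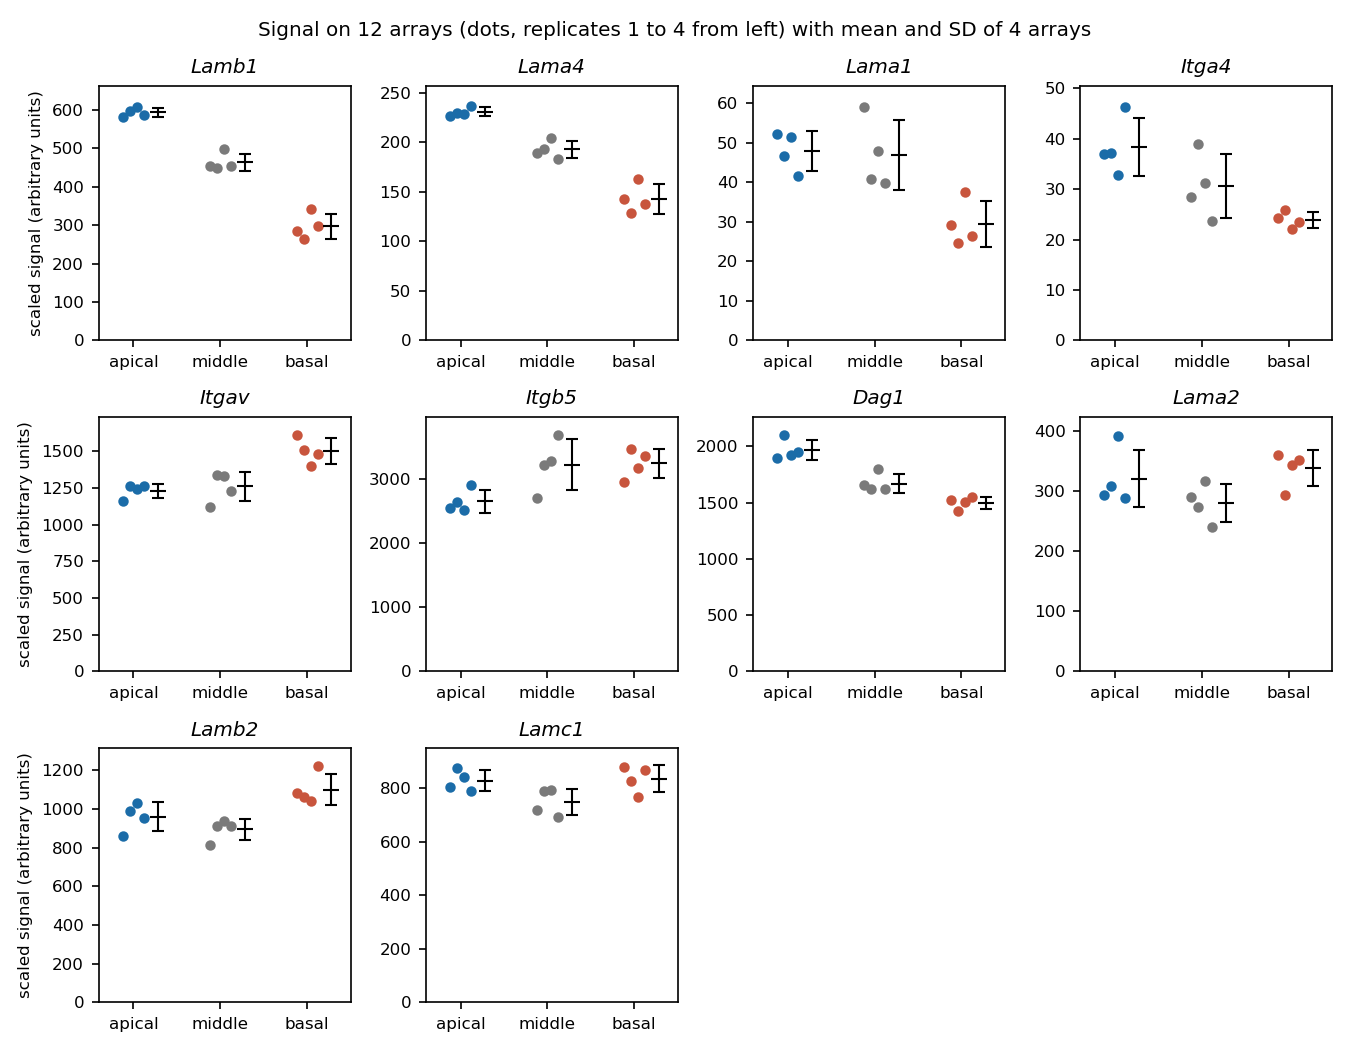
Scaled signal of genes with a called difference of 1.5-fold or more and of 6 genes with the brightest signal of their role, on each array (dots) with the mean and SD of the 4 arrays of a turn (bars), axes from 0. Lamb1 and Lama4 step down from apical to basal, and Lama2 and Lamc1 overlap across turns. Dag1 steps down on this scale and has an apex minus base value of -0.03 when scaled to spike-in probes.

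The array reads each gene with many 60-base probes, placed in single exons and numbered here from the 5′ end of the transcript, so that agreement among probes can be seen. Probes are printed here for Lamb1, Lama4, Lama1 and Itga4, which were called at 1.5-fold or more, to show what was read. Each was chosen as nearest the median difference of its gene's probes. Only probes that were neither first nor last and had a forward reading frame without a stop codon were eligible. Each printed probe was well above background on all 12 arrays. Coordinates are of mouse build mm9, as the array files give them. For Lamb1 it is probe 11 of 33, at chr12:31973116-31973175 on the plus strand, with mean signals of 483, 386 and 228 in apex, middle and base. For Lama4 it is probe 21 of 38, at chr10:38793987-38794046, plus strand, at 82.8, 67.0 and 50.9. Lama1 has probe 51 of 63, at chr17:68159262-68159321, plus strand, at 67.6, 74.9 and 47.0, and was not called on its own. Itga4 has probe 15 of 27, at chr2:79141232-79141291, plus strand, at 87.5, 69.5 and 56.5. The files name a transcript for each probe and give no exon or coding annotation.
Lamb1: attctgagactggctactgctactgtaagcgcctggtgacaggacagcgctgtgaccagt
Lama4: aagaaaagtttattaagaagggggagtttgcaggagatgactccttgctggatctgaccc
Lama1: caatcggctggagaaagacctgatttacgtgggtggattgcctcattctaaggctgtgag
Itga4: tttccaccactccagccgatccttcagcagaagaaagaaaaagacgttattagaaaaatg

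Probes of Lamb1 agreed along most of the transcript. All 33 were higher in apex than base, and 31 were called on their own, with log2 differences from 0.70 to 1.37. The 2 that were not called were probes 18 and 20 of 33, picked out after their values were seen. Probe 18, at chr12:31987458-31987517, had mean signals of 940, 945 and 887 in apex, middle and base, a difference of 0.08. Probe 20, at chr12:31989559-31989618, had 745, 787 and 689, a difference of 0.11. Against the mean of the other Lamb1 probes these were -0.95 ± 0.075, adjusted p 0.00011, and -0.92 ± 0.15, adjusted p 0.0047 (limma over 159900 probes), just short of the 2-fold size asked of a single probe. Probe 19, between them, was among the 31.
Lamb1 probe 18: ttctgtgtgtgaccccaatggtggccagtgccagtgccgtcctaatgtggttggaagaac
Lamb1 probe 20: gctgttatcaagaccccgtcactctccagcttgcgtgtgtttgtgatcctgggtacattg

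Lama4 had 38 of 38 probes higher in apex than base, 37 of them called, at 0.29 to 1.07. Hspg2 had 87 of 91 higher and 58 called. On the basal side, Itga8 had 21 of 21 probes higher in base with 19 called, and Itgav 23 of 23 with 18 called. Direction along each transcript was thus shared by nearly all probes of these genes. They and Lamb1 were called on the mean of the same probes, so this agreement is no separate support. The share of all probes called was not computed. Probes of some other genes agreed less. Itgb4 had 13 probes called higher in apex and 2 called higher in base. The apex minus base value of Itgb1 went from 0.17 at probe 1 to -0.19 at probe 18. These 2 genes were picked after their values were seen, and an effect of probe position was not tested.

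Across the 35 genes, 2 of 1029 probes lay 2-fold or more from the rest of their gene between apex and base by their measured signals, 0.194%, beside 1.09% of all probes so tested. Both were Lama1 probes, 39 and 54 of 63, that were well above background on all 4 apical arrays and on no basal array, so base gives only a bound. With the basal level set on each array at the higher of the probe's own signal and the lowest signal well above background, they were at least 1.33-fold and at least 1.53-fold higher in apex, beside 1.64-fold for Lama1 as a whole. A departure of these probes from their gene was therefore not measured.

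**Figure D4:**
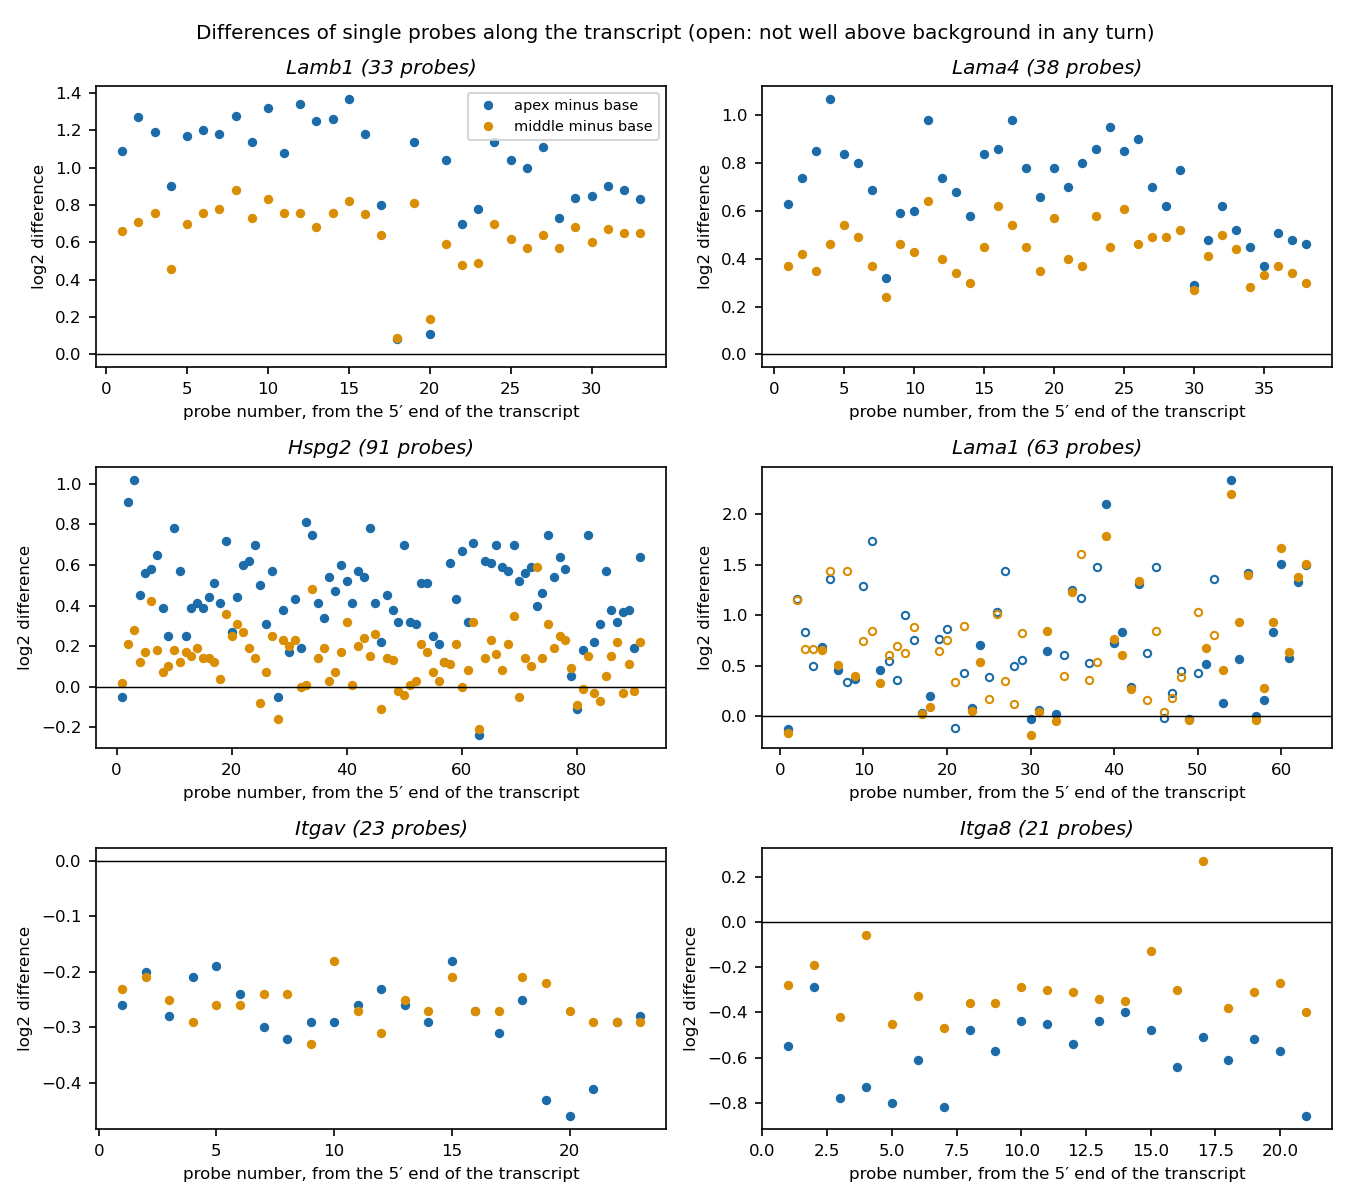
Log2 difference of each probe in 6 genes, by probe number from the 5′ end, for apex minus base (blue) and middle minus base (orange), with open circles for probes not well above background in any turn. In Lamb1 probes 18 and 20 sit near 0 while the other 31 lie between 0.70 and 1.37 in apex minus base, and in Itgav every probe lies below 0.

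Among laminin-binding integrin alpha chains, Itga6, which pairs with Itgb4 in hemidesmosomes and with Itgb1 elsewhere, was called and Itga3 and Itga7 were not. Itga6 had turn means of 437 ± 38, 452 ± 51 and 343 ± 32 (SD, n = 4). Apex minus base was 0.35, adjusted p 0.013, and middle minus base 0.39, adjusted p 0.015. All 25 probes were higher in apex than base, but Itga6 was called on their mean, so this is no separate support. Its apex minus base value lost the call when arrays were scaled to the median signal. Itgb4 was higher in apex than base by 0.34, adjusted p 0.0054, with turn means of 144, 128 and 114. Itga3 and Itga7 had apex minus base intervals of -0.02 to 0.25 and -0.09 to 0.24.

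The RGD-binding integrin chains, named for the tripeptide they bind in fibronectin and vitronectin, were higher in base in 2 of 3 cases. Itga8, which pairs with Itgb1 and takes nephronectin as a ligand, had turn means of 336 ± 13, 410 ± 17 and 501 ± 37, and no array overlapped another turn. All 3 of its differences were called, apex minus base at -0.58 ± 0.061 (1.49-fold, adjusted p 4.2e-05), and each kept its call under the 26 alternatives tried other than the F test with 2-fold. Itgav, the alpha chain shared by vitronectin receptors, read 1160, 1260, 1240 and 1260 in apex, 1120, 1340, 1330 and 1230 in middle and 1610, 1510, 1400 and 1480 in base. Its basal arrays lay above all others, while apex and middle overlapped. Its apex minus base difference was -0.28, adjusted p 0.0061, and middle minus base -0.26, adjusted p 0.02, the latter rising to at most 0.055 without middle replicate 1 or basal replicate 1 or 2 and to 0.085 at most in the other alternatives. Itga5, the classical fibronectin receptor chain, had an interval of -0.33 to 0.08.

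Itgb5 pairs with Itgav. It read 2550, 2640, 2530 and 2920 in apex, 2710, 3220, 3290 and 3690 in middle and 2960, 3480, 3180 and 3360 in base. Basal arrays lay above all apical ones, narrowly, and the middle arrays spanned both. Apex minus base was -0.29, adjusted p 0.027, but rose to at most 0.078 without apical replicate 1, 2 or 3 or basal replicate 2 or 4, and was -0.13 with adjusted p 0.23 after quantile normalization. Itgb6, the epithelial partner of Itgav, ran the other way at 0.33, adjusted p 0.0069, and lost the call with quantile normalization and with scaling to the median signal. Itgb1, the beta chain that most alpha chains share, did not pass, and its 95% interval for apex minus base was -0.09 to 0.19. Itgb8 had -0.20 to 0.13 and Itgb3 0.02 to 0.48, the latter at an adjusted p of 0.077.

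Itga4 encodes the alpha chain with which leukocytes, among other cells, bind fibronectin and vessel walls. It read 36.9, 37.2, 32.9 and 46.4 in apex, 28.5, 39.0, 31.2 and 23.7 in middle and 24.2, 25.9, 22.2 and 23.4 in base. Apical arrays were all above the basal ones, and the middle turn reached into both. Apex minus base was 0.67 ± 0.14, 1.59-fold, adjusted p 0.0032, from a dim gene with 16 of 27 probes above background in some turn. On every array of a turn, 16 probes passed in apex, 6 in middle and 5 in base. The 16 were all higher in apex, but most passed the filter through apex, so their direction is no separate support. In base 12 probes were above background on no array. With the gene's mean signal on each basal array set no lower than the lowest signal well above background, the fold was 1.38. Single probes were not raised to that level, so this fold is no lower bound. With normexp background correction the value was 0.17, adjusted p 0.038. Apical replicate 4 was the highest array not only for Itga4 but also for the leukocyte beta chains Itgb2, at 78.6 against 37.6 to 52.0 on the other apical arrays, and Itgb7, at 34.2 against 22.1 to 26.5. Summed macrophage and leukocyte markers were 3040 on that array and 2240 to 2620 on the other apical arrays, and 2990 to 3620 in base, with 6 of 8 markers called higher in base than apex. That array stood further apart in bone markers, whose sum was 5290 beside 1390 to 1960 on the other apical arrays and 2510 to 3190 in base. Among them Ibsp, bone sialoprotein, was at 1840 beside 57.3 to 312, and Col1a1, a collagen I chain, at 1330 beside 260 to 478. Blood markers summed to 60400 there and to 21400 to 37300 on the other apical arrays. The part of these cells in the result was not tested. Without apical replicate 4 Itga4 gave 0.58, adjusted p 0.0088. Itgb2 and Itgb7 themselves passed in no comparison.

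Of the collagen-binding alpha chains, Itga1 alone of 4 was called. Its turn means were 123 ± 4.5, 124 ± 11 and 156 ± 16, with apex minus base at -0.33, adjusted p 0.0089, and middle minus base at -0.33, adjusted p 0.019. The latter rose to at most 0.058 without middle replicate 1 or basal replicate 2 or 4, and the former was 0.056 with the median of probes. Itga2, Itga10 and Itga11 had apex minus base values of -0.15, 0.14 and 0.11 that did not pass, and neither did Itga9 at 0.10.

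Dystroglycan, the product of Dag1, is the main laminin receptor outside the integrins. Its signals were 1900, 2100, 1920 and 1950 in apex, 1660, 1620, 1800 and 1620 in middle and 1520, 1430, 1510 and 1550 in base. No array overlapped another turn. Apex minus base was 0.39 ± 0.054, 1.31-fold, adjusted p 0.00023, from 2 probes. Apex minus middle, 0.23 with adjusted p 0.02, rose to at most 0.066 without apical replicate 2 or middle replicate 2 or 4, and to at most 0.60 with spike-in scaling or averaging on the linear scale. Scaled to spike-in probes, Dag1 was at -0.03, which is 0.42 above the median of all genes.

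Hspg2, which encodes perlecan, had turn means of 186 ± 21, 149 ± 16 and 135 ± 5.2, and apex minus base was 0.46, adjusted p 0.0025. Its difference of 0.32 between apex and middle, adjusted p 0.047, kept its call in 8 of 26 alternatives. Leaving out 1 array ended it except for apical replicate 4 and middle replicate 3, at an adjusted p of at most 0.12, and other processing took it to at most 0.37. Nid1 was lower in base than in middle by 0.27, adjusted p 0.018, which rose to 0.055 without basal replicate 2 and was lost with spike-in scaling and the median of probes. Its apex minus base value of 0.20, adjusted p 0.04, kept sign and call in 10 of 26 alternatives, and rose to at most 0.12 without apical replicate 1, 3 or 4, middle replicate 1, 2 or 4 or basal replicate 1, 2 or 4. Agrn was called between middle and base at -0.22, adjusted p 0.035, which rose to at most 0.092 without middle replicate 1 or 2 or basal replicate 1, 2 or 4 and was 0.19 with the median of probes. Nid2 passed in none.

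In all, 16 of the 35 genes passed in no comparison, and the share of all genes that did so was not computed. By the F test over the turns, 18 of the 35 passed, beside 38.6% of all genes. For apex against base, 19 did not pass, where 17.6% and 21.6% of all genes were called higher in apex and in base. For all 19 the 95% interval stayed within 1.5-fold either way. By the size rule of the methods, an F test over the turns with turn means 2-fold or more apart, Lamb1 alone passed, 2.86% of the 35, beside 4.69% of all genes. At 2.01-fold it lay at the edge of that rule and did not pass it without apical replicate 3 or basal replicate 1 or 2.

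Cell type markers differed along the same axis. All 7 Schwann cell markers were higher in apex than base and in middle than base, and their summed signal was 13400 to 15100 in apex and 14200 to 17200 in middle. In base it was 12700 on replicate 3 and 6600 to 9050 on the other arrays. Neuronal markers were higher in apex for 5 of 7 and in base for 1, Prph at -0.34 and adjusted p 0.033, summing to 27100 to 35300 in apex, 23800 on basal replicate 3 and 5620 to 11200 on the other basal arrays. Among the genes called higher in apex than base, basal replicate 3 was the highest basal array for Lamb1, Lama4, Lama1 and Nid1. It was the lowest for Hspg2, Itga4 and Itgb6, and neither for Dag1, Itga6 and Itgb4. The part of nerve and Schwann cell content in the differences of these genes was not tested. Without that array the apex minus base differences of Lamb1, Lama4 and Lama1 were 1.08, 0.76 and 0.84.

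On the other side, all 5 spiral ligament fibrocyte markers were higher in base, summing to 283000 to 307000 in apex and 555000 to 618000 in base. So were 4 of 5 marginal cell and 4 of 5 melanocyte-like intermediate cell markers of the stria. Hair cell markers were higher in apex for 6 of 6, at sums of 13900 to 18200 against 2970 to 5450 in base. Endothelial markers split, with 2 of 8 higher in apex and 4 higher in base, at sums of 9170 to 12300 and 10500 to 12100. In none of these lists was a marker without a probe above background. In such bulk tissue fewer cells of a type and less RNA per cell cannot be told apart, and the part of these cell types in the integrin and laminin differences was not tested.

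**Figure D5:**
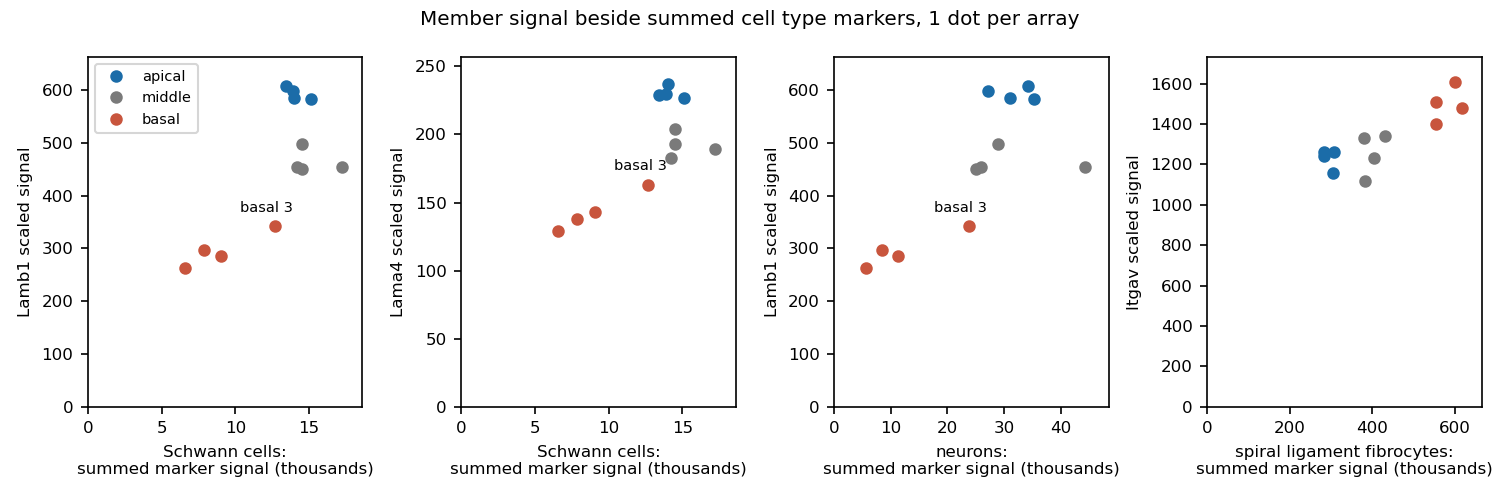
Scaled signal of a gene (vertical) beside the summed signal of a cell type's markers (horizontal, axis divided by 1000), 1 dot per array, coloured by turn, both axes from 0. Basal replicate 3 has the largest Schwann cell and neuronal sums of the basal arrays and the highest Lamb1 and Lama4.

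Other genes of the same matrix and its receptors were read from lists. Of 10 basement membrane collagens, 5 were higher in apex than base and 2 in base, beside 17.6% and 21.6% of all genes. The 2 were Col4a3 and Col4a4, chains of one collagen IV network whose loss causes hearing and kidney disease. Col4a3 had turn means of 80.8 ± 6.5, 82.4 ± 4.1 and 138 ± 7.6 (1.71-fold between apex and base, adjusted p 1.1e-05) and Col4a4 49.9 ± 7.1, 54.2 ± 5.6 and 83 ± 10 (1.66-fold, adjusted p 6e-04). The 5 were Col4a1, Col4a2, Col4a5, Col15a1 and Col18a1, named after their values were seen, at 1.12- to 1.29-fold. With normexp background correction 2 of the 10 were called in place of 7.

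Of 19 other integrin ligands and basement membrane proteins, 10 were higher in apex and 7 in base, beside 17.6% and 21.6% of all genes. Tnc, tenascin C, had a mean of 80.6 ± 26 in apex, and 18 of its 25 probes were well above background on no basal array. With the mean Tnc signal on each basal array set no lower than that array's lowest signal well above background, Tnc was 2.86-fold higher in apex (adjusted p 3.4e-06 on the measured signals). Egfl6, an integrin ligand of skin and vessel matrix, had 7 of 12 probes above background on no basal array. In the same way it was 4.07-fold higher in apex (adjusted p 3.4e-06). Single probes were not raised to that level, so neither fold is a lower bound. Fn1, fibronectin, was 3.72-fold higher, with means of 623 ± 82, 250 ± 29 and 166 ± 7.8. The Fras1 partners Frem2 and Frem1 were 1.94-fold and 1.62-fold higher in apex, as were Pxdn (1.89-fold), which crosslinks collagen IV, Fbln1 (1.72-fold) and Smoc2 (1.65-fold). In base, Npnt, which encodes the Itga8 ligand nephronectin, was 2.35-fold higher (means 266 ± 11, 286 ± 15 and 627 ± 34, adjusted p 1.6e-07). Bcam, a receptor for laminin alpha chains, was 1.97-fold higher there, Sparc 1.90-fold, Tinagl1 1.67-fold, Spp1, osteopontin, 1.64-fold and Cd151, the tetraspanin that binds laminin receptors, 1.5-fold.

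Integrin cytoplasmic partners numbered 18, with 2 higher in apex and 6 in base, beside 17.6% and 21.6% of all genes. Those past 1.5-fold between apex and base were Parvb, 1.73-fold higher in apex, and Lims2 and Itgb1bp1, 1.67-fold and 1.57-fold higher in base. Of 20 genes of the dystroglycan complex and its sugar chains, 7 were higher in apex and 6 in base, beside the same shares of all genes. Sgcd, a sarcoglycan, was 1.90-fold higher in apex. None of the 8 integrin genes outside the gene name rule, mostly leukocyte chains, was called by limma between apex and base, with 1 at an unadjusted p under 0.05.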

How the data were processed

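Per the file headers, the authors made each array's spot table with Agilent Feature Extraction 10.7.3.1, and the deposited value used here is the background-subtracted processed intensity on a linear scale. The deposited series table held the same intensity on all 12 arrays. Positions are of mouse build mm9, and the reference tables were not used here.

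Of 180880 spots, 7914 control spots and 622 flagged spots were left out, which left 119 probes without a spot. Each array was scaled so that its 75th percentile (534.6 to 722.1 before scaling) was 641.3. Spots of a probe, then probes of a gene name, were averaged as log2. The number of arrays limits the precision.

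Genes and probes were tested in R 4.3.3 with limma 3.58.1 (lmFit, eBayes) over all 12 arrays with turn as the only term, and adjusted by Benjamini-Hochberg over 19505 genes, 165865 probes, or 159900 probes set against the mean of the other probes of a gene with 3 or more. The methods used an analysis of variance over turns on gene averages, so limma's F test with a fold of 2 was run beside it. Arrays count as separate samples, and p-values measure the spread between them. Counts cover all 35 genes, and some single genes are not reported here. Values on each array are given for those called with a fold of 1.5 or more in any comparison and for the brightest of each of 6 roles, and other genes are named from lists at the same size. The members and lists were chosen with earlier results of these data known. Alternatives changed scaling, background correction, pseudocount (16), averaging of probes, probe filters, test settings, replicate block and the arrays used. The scripts were tested on simulated data. Figures were drawn with matplotlib.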

Additional observations from a re-analysis of the deposited data

Results flagged for a closer look

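In 8 of 105 groups of 4 arrays, 7.62%, the highest or lowest array of a gene stood apart from the other 3 by more than Dixon's 95% critical value, where chance alone flags about 1 group in 20. Of the genes with called differences, Lamb1 on middle replicate 3 was at 498 beside 450 to 455, Itga8 on middle replicate 2 at 435 beside 401 to 403, and Itga1 on basal replicate 3 at 132 beside 162 to 165. Itga3 on middle replicate 2 was at 136 beside 151 to 152. Itgb2 on basal replicate 3 was at 48.6 beside 57.3 to 58.4. Itgb8 on apical replicate 1 was at 485 beside 442 to 443. Itga11 stood apart on apical replicate 4, at 40.5 beside 35.1 to 35.6, and on middle replicate 3, at 35.4 beside 36.4 to 36.7.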

How the results depend on the processing

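Of the 35 called differences of the 35 genes, 25 to 35 kept direction and call in each alternative that changed the processing or the test, spike-in scaling apart, and 27 to 35 when 1 array was left out, with no change of sign. Spike-in scaling kept 18 and turned 5, among the genes given per array that of Dag1 (apex minus base -0.03), and its medians over all genes were -0.45 for apex minus base, -0.23 for apex minus middle and -0.22 for middle minus base. The cause of the changes given here was not tested.

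Counts are given first for genes higher in apex than base (10 as reported) and in base than apex (6), in apex than middle (5) and in middle than apex (1), in middle than base (5) and in base than middle (8). Spike-in scaling gave 2 and 20, 0 and 3, and 1 and 15. Beside these stood 917 and 13393, 263 and 5895, and 805 and 6954 of all 19505 genes. In middle than apex, quantile normalization, scaling to the median, averaging on the linear scale and the restriction to probes well above background gave 2. In apex than middle, normexp and averaging on the linear scale gave 2, and probes well above background gave 9. Taking the median of probes gave 3 higher in base than apex and 5 in base than middle. The rule of an F test with 2-fold gave 1, 0, 0, 0, 0 and 0. The 1 gene past that rule became 0 with quantile normalization, scaling to the median, spike-in scaling, normexp, 16 added before log2 and averaging on the linear scale.

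The 2 Lama1 probes past 2-fold by measured signals, whose basal level is only a bound, became 1 with quantile normalization, normexp, 16 added, probes of the commonest transcript identifier and the unmoderated test. Basement membrane collagens called between apex and base went from 7 to 2 with normexp, and integrin cytoplasmic partners from 8 to 16 with spike-in scaling. Of the 8 integrin genes outside the gene name rule, 0 as reported, 2 were called with quantile normalization, 1 with scaling to the median, 16 added or probes well above background, 3 with averaging on the linear scale and 6 with spike-in scaling.

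With 1 array left out the 6 counts ranged from 9 to 11, 4 to 7, 1 to 6, 1 to 2, 4 to 6 and 4 to 8. The study's rule gave 0 to 1, the deviating probes 0 to 6, collagens 5 to 7, other ligands 16 to 17, cytoplasmic partners 8 to 9, the dystroglycan list 12 to 13 and the 8 outside integrin genes 0 to 1.

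With the replicate block, that is, the sample number as a term, the counts were 11, 7, 6, 3, 5 and 8, the outside integrin genes 1 and the deviating probes 0. The numbers were not taken to pair arrays, since the labels do not say that they do. Deviations of same-numbered arrays correlated by more than 0.1 in 6 of 12 pairs (mean r 0.0949). Differently numbered arrays of different turns did so in 2 of 36 pairs (mean r -0.0313). Whether same-numbered arrays share a mouse was not tested.

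Signal near background limited dim genes: 16 of 27 Itga4 probes, 32 of 63 Lama1 probes, 12 of 30 Itga11 probes, 8 of 16 Itgb3 probes and 4 of 14 Itgb7 probes were well above it. For Itga4 and Lama1, apex minus base was 0.17 and 0.22 with normexp against 0.67 and 0.71 as reported. Each turn lay on 1 slide, the labels do not tie arrays to mice, and 4 arrays a turn set the precision.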
